A study of Mus musculus with 8 samples.

Results

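Regulatory T cells of the mouse colon that carried transcripts of the interleukin-33 receptor ST2 or of the lectin-like receptor KLRG1 were described in 8 single-cell RNA libraries. Cells were selected on their own measured counts: a cell was taken when it was on the authors' deposited list of cells and met limits on its unique molecular identifiers (UMIs, 1 per captured RNA molecule). These were at least 2 UMIs summed over the T cell genes Cd3e, Cd3d, Cd3g, Trac and Trbc2, at most 1 UMI each of Cd79a (B cells), Col3a1 (fibroblasts) and C1qa (macrophages), at least 1 UMI of Foxp3, and at least 1 UMI of Il1rl1 (the ST2 gene) and Klrg1 together. This gave 552 cells of 27420 listed cells, 19833 T cells and 3477 Foxp3 T cells. They are called ST2 or KLRG1 Tregs here. The remaining 2925 Foxp3 T cells, with no UMI of Il1rl1 or Klrg1, served as the comparison and are called other Foxp3 T cells.

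All mice were C57BL/6, aged 10 to 12 weeks, and CD4 cells were enriched with a magnetic kit from the lamina propria of the colon, the tissue layer beneath the epithelium. Untreated wildtype mice and untreated mutant mice received plain water. In the other pair of groups, wildtype and mutant mice drank 2% dextran sulfate sodium (DSS), a polymer that damages the gut lining, during 7 days, then 3 days of plain water, with harvest on day 10. The mutant mice carried a point substitution. Each of the 4 groups held 2 libraries, which are numbered 1 and 2 here in the order of deposit because the labels give no replicate numbers, and described by the submitters as independent biological replicates. About 10000 cells were loaded per library. Such a substitution is not visible in gene counts, so the genotype labels were not checked.

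Regulatory T cells restrain immune responses and depend on the transcription factor FOXP3. In barrier tissues a subset carries ST2, the receptor for interleukin-33, an alarm signal released by damaged epithelium and stroma. These cells are known for the transcription factor GATA3, for the growth factor amphiregulin (Areg) and for roles in tissue repair. KLRG1, an inhibitory receptor that binds cadherins, marks differentiated effector Tregs.

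Il1rl1, which defines most of these cells, has 2 promoter windows in the RefSeq table, and they are shown with their GATA-type motifs because Gata3 separated the cells from other Foxp3 T cells below. Each covers 250 bases before an annotated start on build GRCm38.p6 (mm10), plus strand, 5′ to 3′. Capitals mark matches to the GATA-type motifs AGATAA and TGATAA, searched on both strands, so that TTATCT is AGATAA on the opposite strand.
Il1rl1 start at the distal window, chr1:40429320-40429569: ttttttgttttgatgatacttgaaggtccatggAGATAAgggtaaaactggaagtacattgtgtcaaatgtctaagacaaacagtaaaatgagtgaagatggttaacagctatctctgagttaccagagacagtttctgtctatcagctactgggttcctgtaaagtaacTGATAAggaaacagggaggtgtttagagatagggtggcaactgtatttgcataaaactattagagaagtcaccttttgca
Il1rl1 start at the proximal window, chr1:40439379-40439628: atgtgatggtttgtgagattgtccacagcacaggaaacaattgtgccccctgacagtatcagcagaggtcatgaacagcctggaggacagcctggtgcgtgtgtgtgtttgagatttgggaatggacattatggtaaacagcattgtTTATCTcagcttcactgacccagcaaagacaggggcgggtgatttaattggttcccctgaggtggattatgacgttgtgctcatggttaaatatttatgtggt
The first window held AGATAA 217 bases and TGATAA 80 bases before the start, and the second held TTATCT 103 bases before the start. Either motif was present in 5452 of 32851 windows of this length (16.6%), AGATAA or TTATCT in 9.99% and TGATAA or TTATCA in 7.94%. The window of Gata3 held no match, which says only that these letters are not in that window. A match is a description and not a binding site. The 3′ counts do not tell the soluble from the membrane form of ST2 apart.

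The 8 libraries held 34497509 to 46960005 UMIs and together 100673 barcodes, and the ST2 or KLRG1 Tregs contributed 112274 to 878175 UMIs per library. They numbered 32 and 36 in the untreated wildtype libraries, 27 and 27 in the untreated mutant, 143 and 73 in the DSS-treated wildtype, and 65 and 149 in the DSS-treated mutant. Their median depth was 2782 to 4674 UMIs per cell, against 2924 to 4484.5 in other Foxp3 T cells and 2161.5 to 3155 in all T cells. In the same order of libraries it was 3885.5, 4674, 4470 and 3599 untreated, against 3332, 3219, 3492 and 2924 in other Foxp3 T cells. After DSS it was 3514, 3505, 2782 and 4580, against 3850.5, 2958, 3027 and 4484.5. Listed by wildtype before mutant, the sets thus differed in depth, and the difference of DSS effects between them has no thinned alternative. Listed cells of different libraries shared 88 barcodes over the 28 pairs of libraries, and no barcode was shared between ST2 or KLRG1 Tregs of different libraries. No doublet caller was run. Of the 552 cells, 146 held a UMI of a gene of another lineage and 4 to 30 per library exceeded 3 times their library's median T cell depth, so gene results were also computed without such cells. Among Foxp3 T cells that left 354 of 2219.

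The rule rested on few molecules per cell. Foxp3 was present at exactly 1 UMI in 250 cells and at 2 or more in 302. Il1rl1 and Klrg1 together were at 1 UMI in 213 cells, at 2 in 110 and at 3 or more in 229, and 59 cells had 2 or 3 UMIs of the T cell genes. Just outside the rule were 25 cells with 1 T cell UMI, 551 without a Foxp3 UMI and 64 over a cap on another lineage. By receptor, 276 cells carried Il1rl1 alone, 149 Klrg1 alone and 127 both.

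As a description, Il1rl1 in ST2 or KLRG1 Tregs was at 505 and 341 CPM (counts per 1e6 UMIs, summed over the cells of a library) in the untreated wildtype, 357 and 445 in the untreated mutant, 509 and 565 in the DSS-treated wildtype and 575 and 321 in the DSS-treated mutant. Klrg1 was at 259 and 139, 109 and 294, 109 and 198, and 246 and 171 CPM in the same order. Foxp3 ranged from 272 to 520.4 CPM in these cells and from 334 to 464 CPM in other Foxp3 T cells. The ranges of all groups overlapped for Klrg1, while Foxp3 in the 4 DSS libraries (374 to 520.4 CPM) overlapped the untreated ones (272 to 401 CPM) only in part.

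The label of regulatory T cells was set beside genes that the rule did not use. Il2ra, the interleukin-2 receptor alpha chain, was present at 178 to 415 CPM, Ctla4 at 751 to 1164 CPM and Tnfrsf18 (GITR) at 451 to 627 CPM in the 8 libraries. By cell, Il2ra was detected on average in 54.9% of these cells and 18.3% of T cells without a Foxp3 UMI. Ctla4 was detected in 90.2% and 67.1%, so its presence is not particular to Foxp3 T cells. Il17a was detected in 18.1% and 25.2%. These shares were not matched for depth. In ST2 or KLRG1 Tregs the 14 Th17 genes summed to 2234 to 3802 CPM. All 5 mast cell genes searched, among them Cpa3 and Mcpt1, were at 0 UMIs. With 0 of 552 cells, a share of up to 0.543% with a UMI is allowed for each. Of 10 genes of Th2 cells and group 2 innate lymphoid cells, Il5, Il13, Il9 and Ptgdr2 were at 0 and the other 6 had UMIs, with a summed level of 38.7 to 116 CPM. Genes of other lineages were not absent, however: the summed level of 8 B and plasma cell genes ranged from 518 to 6817 CPM, of 10 macrophage and dendritic cell genes from 278 to 1764 CPM and of 7 fibroblast genes from 4.80 to 167 CPM. The sum of 8 genes of CD8 T, NK and gamma-delta T cells ranged from 14.4 to 155 CPM, with Cd8a and Ncr1 at 0. It ranged from 14.4 to 325 CPM for 7 epithelial genes and from 0 to 10.8 CPM for 5 neutrophil genes, the latter at 0 in the untreated libraries.

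The ST2 or KLRG1 Tregs formed a larger share of T cells in every DSS library, while their share of Foxp3 T cells differed by less than the spread between libraries. Of T cells they made up 1.55% and 1.71% in the untreated wildtype, 1.50% and 1.26% in the untreated mutant, 4.74% and 2.85% in the DSS-treated wildtype, and 2.48% and 4.25% in the DSS-treated mutant. Every DSS library was above every untreated one, with means of 1.50% ± 0.186 and 3.58% ± 1.09 (SD, n = 4 libraries each). The difference of 2.08 percentage points had an exact permutation p of 0.0286, two-sided, the smallest that 4 libraries against 4 allow, and 0.114 after Benjamini-Hochberg adjustment over the 4 tests of shares. Permuted within genotypes, the exact p was 0.0556 (adjusted 0.222). This is again the smallest that such a permutation allows, so the higher p does not show a weaker difference. The difference was 1.44 points with Foxp3 at 2 UMIs or more and 0.757 points in cells thinned to 1000 UMIs. Cells are counted within a CD4-enriched suspension, so fewer other T cells and more Tregs cannot be told apart.

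Of Foxp3 T cells they made up 14.5% and 16.8%, 14.4% and 17.6%, 20.3% and 12.8%, and 14.2% and 15.3% in the same order. The untreated mean was 15.8% ± 1.64 and the DSS mean 15.7% ± 3.28 (SD, n = 4 each), with an exact permutation p of 0.943. Foxp3 T cells as a whole moved from 7.12–10.7% of T cells in untreated libraries to 17.5–27.7% after DSS. The mutant differed from the wildtype by -0.339 percentage points of T cells (exact permutation p = 0.657, adjusted 0.914) and by -0.707 points of Foxp3 T cells (exact permutation p = 0.686, adjusted 0.914). Without DSS wildtype library 1, both genotype differences were positive, at 0.339 and 0.703 points, and without untreated mutant library 2 the first was 0.0323 points. The DSS difference among Foxp3 T cells was positive without untreated wildtype library 2 (0.150), untreated mutant library 2 (0.425), DSS wildtype library 2 (0.779) or DSS mutant library 1 (0.318). With cells thinned to 1000 UMIs the DSS difference among Foxp3 T cells was 2.44 points, and without very deep or mixed cells 2.13 points, with no call in either.

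**Figure D1:**
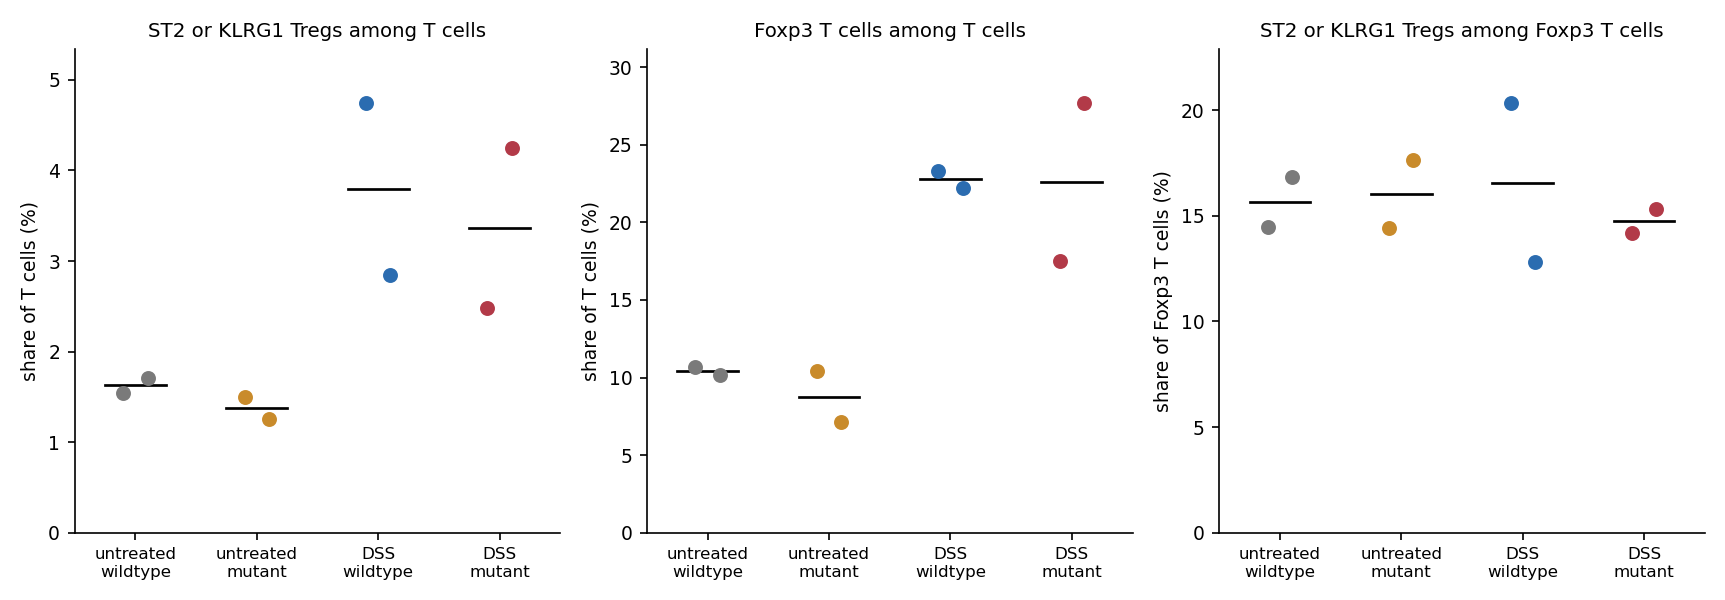
Share of ST2 or KLRG1 Tregs among T cells (left), of Foxp3 T cells among T cells (middle) and of ST2 or KLRG1 Tregs among Foxp3 T cells (right), in percent; each point is 1 library and each bar the mean of 2 libraries of a group. The 4 DSS libraries lie at 2.48% to 4.74% of T cells, above the untreated ones at 1.26% to 1.71%, while among Foxp3 T cells the groups overlap.

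How the genes of the rule occurred together is given as a description, with no test, since the cells were selected on them. Among Foxp3 T cells, Klrg1 was detected in 32.4% ± 11.7 of cells with an Il1rl1 UMI and in 5.11% ± 1.25 of cells without (SD, n = 8 libraries). The first was higher in 8 of 8 libraries. After thinning each cell to 1000 UMIs the shares were 26.6% and 2.37%. Both genes were also more frequent in T cells with a Foxp3 UMI than in those without, Il1rl1 at 11.2% against 2.60% and Klrg1 at 8.12% against 1.18%, again in 8 of 8 libraries.

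The same genes were also counted in barcodes of other cell types, and whether those UMIs came from free RNA was not tested. In B cell barcodes, with median depths of 3268.5 to 11278 UMIs, Foxp3 was detected in 0 to 1.20%, Il1rl1 in 0 to 0.772% and Klrg1 in 0 to 0.234% of cells. By treatment, Foxp3 was detected there in 0 to 0.234% untreated and 0.549 to 1.20% after DSS, and Il1rl1 in 0 to 0.256% and 0.388 to 0.772%. In fibroblast barcodes, with medians of 3865 to 7008.5 UMIs, Il1rl1 was detected in 0.510 to 7.74% and Klrg1 in 0 to 0.122%. By treatment, Il1rl1 was detected there in 0.510 to 0.725% untreated and 1.98 to 7.74% after DSS. The part of these differences in the shares of cells that met the rule was not tested. Areg was detected in 5.98 to 15.8% of fibroblast barcodes and 0.256 to 3.90% of B cell barcodes.

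Compared with other Foxp3 T cells of the same libraries, ST2 or KLRG1 Tregs carried more Gata3, Ikzf2 and Penk and less Il10 and Lag3. UMIs were summed per library and cell set and tested with edgeR's quasi-likelihood test with the library as a block, with Benjamini-Hochberg adjustment over all genes tested; a gene was called at an adjusted p under 0.05. Of 6443 genes, 381 were called (5.91%), 240 of them higher (3.72%) and 141 lower (2.19%). DESeq2 called 229, 178 higher and 51 lower. With no filter on low counts the balance turned, at 167 higher and 284 lower of 17281 genes, with 279 of the 381 called again. Without very deep or mixed cells 166 were called. Leaving out single libraries moved the count to 211 without DSS wildtype library 1, 243 without DSS wildtype library 2 and 207 without DSS mutant library 2. Genes of the rule were not tested. In such sums, fewer cells with a transcript and less RNA per cell cannot be told apart. By cell, Gata3 was detected on average in 60.0% of ST2 or KLRG1 Tregs and 23.8% of other Foxp3 T cells. The shares were 82.7% and 51.1% for Ikzf2, 26.9% and 9.32% for Penk, and 28.0% and 48.3% for Il10. In the same comparison of barcodes outside the deposited list, chosen after the data were seen, 489 of 5526 genes were called (8.85%), 306 higher (5.54%) and 183 lower (3.31%), and 245 of the 381 genes were called there with the same sign.

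Gata3, the transcription factor of type 2 immunity and of ST2 Tregs, was at 314 and 216 CPM in the untreated wildtype, 206 and 285 in the untreated mutant, 299 and 333 in the DSS-treated wildtype, and 278 and 253 in the DSS-treated mutant. In other Foxp3 T cells it stayed between 67.8 and 85.1 CPM, so the 2 sets did not overlap. Gata3 was thus higher by 1.87 on the log2 scale (SE 0.10, edgeR adjusted p = 3.0e-15). Ikzf2 (Helios), a transcription factor of stable Tregs, was at 784 and 609, 557 and 802, 865 and 1175, and 949 and 995 CPM in the same order, against 239 to 386 CPM in other Foxp3 T cells. It was higher in 8 of 8 libraries by 1.45 on the log2 scale (SE 0.09, edgeR adjusted p = 5.42e-14). Its relative Ikzf4 (Eos), a partner of FOXP3 in repression, was higher by 1.55 (90.7 ± 39.0 against 33.8 ± 3.15 CPM, SD, n = 8).

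Among 16 tested genes of the core Treg list, 6 were higher and 1 lower, with a median log2 fold change of 0.12 beside 0.00 over all genes. Besides Ikzf2 and Ikzf4 these were Itgb8 (1.14), an integrin chain that activates latent TGF-beta, the costimulatory receptors Tnfrsf18 (0.60) and Tnfrsf4 (0.53), and Il2ra (0.31). Ctla4 was lower by a small amount, at 900.5 ± 146 against 1057 ± 100.3 CPM (log2 fold change -0.21, edgeR adjusted p = 0.0289). The Il2ra call was lost without untreated wildtype library 2, untreated mutant library 1, either DSS-treated wildtype library or DSS mutant library 1. The Ctla4 call was lost without untreated wildtype library 2, DSS wildtype library 1 or either DSS-treated mutant library.

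The tissue Treg list had 7 of 16 tested genes higher and 1 lower, with a median of 0.29. Next to Gata3 these were Pdcd1 (1.29), the PD-1 receptor, Itgae (0.79), the CD103 chain that binds epithelial E-cadherin, Il18r1 (0.70), an interleukin-18 receptor chain, Id2 (0.34), Rora (0.33) and Cd44 (0.30). Id2 lost its call without DSS wildtype library 1, and Cd44 without either untreated mutant library, either DSS-treated wildtype library or DSS mutant library 1. Batf, an AP-1 family factor of tissue Tregs, was at a log2 fold change of 0.28 and was not called (edgeR adjusted p = 0.0607).

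Ligands of repair and suppression did not move as 1 group: of 11 tested, 2 were higher and 1 lower, with a median of 0.15. Penk, which encodes the opioid precursor proenkephalin, was at 579.8 and 259 CPM in the untreated wildtype, 84.7 and 979.7 in the untreated mutant, 330.5 and 457 in the DSS-treated wildtype, and 319.5 and 240.3 in the DSS-treated mutant. Other Foxp3 T cells held 41.7 to 146 CPM, and the log2 fold change was 2.00 (SE 0.21, edgeR adjusted p = 3.92e-08). The 2 untreated mutant libraries were at the opposite ends of the range. Ebi3, a subunit of interleukin-35, was higher by 0.98. Il12a, which encodes its other subunit, had 0 UMIs in the 552 cells, so a share of up to 0.543% with a UMI is allowed.

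Areg, the growth factor for which tissue-repair Tregs are named, was at 914 and 533, 291 and 730.4, 821 and 1129.8, and 639 and 575 CPM. Other Foxp3 T cells held 269 to 1086 CPM, and the 2 sets overlapped across their ranges. The log2 fold change of 0.35 (SE 0.13) was not called (edgeR adjusted p = 0.131). In the barcodes outside the deposited list Areg was called higher, at 0.39 (SE 0.10, edgeR adjusted p = 0.0114). Areg was detected in 66.7% ± 9.38 of ST2 or KLRG1 Tregs and 47.2% ± 6.92 of other Foxp3 T cells, or 39.4% ± 18.0 and 29.5% ± 5.10 in cells thinned to 1000 UMIs (SD, n = 8). The label "tissue-repair" goes beyond what the rule selects on, so the cells are called by their rule. Il10, an anti-inflammatory cytokine, was lower in 8 of 8 libraries, at 78.2 to 169 CPM against 195 to 345 CPM (log2 fold change -1.10, SE 0.10, edgeR adjusted p = 1.73e-09). Tgfb1 (0.17) and Gzmb (0.10) were not called.

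**Figure D2:**
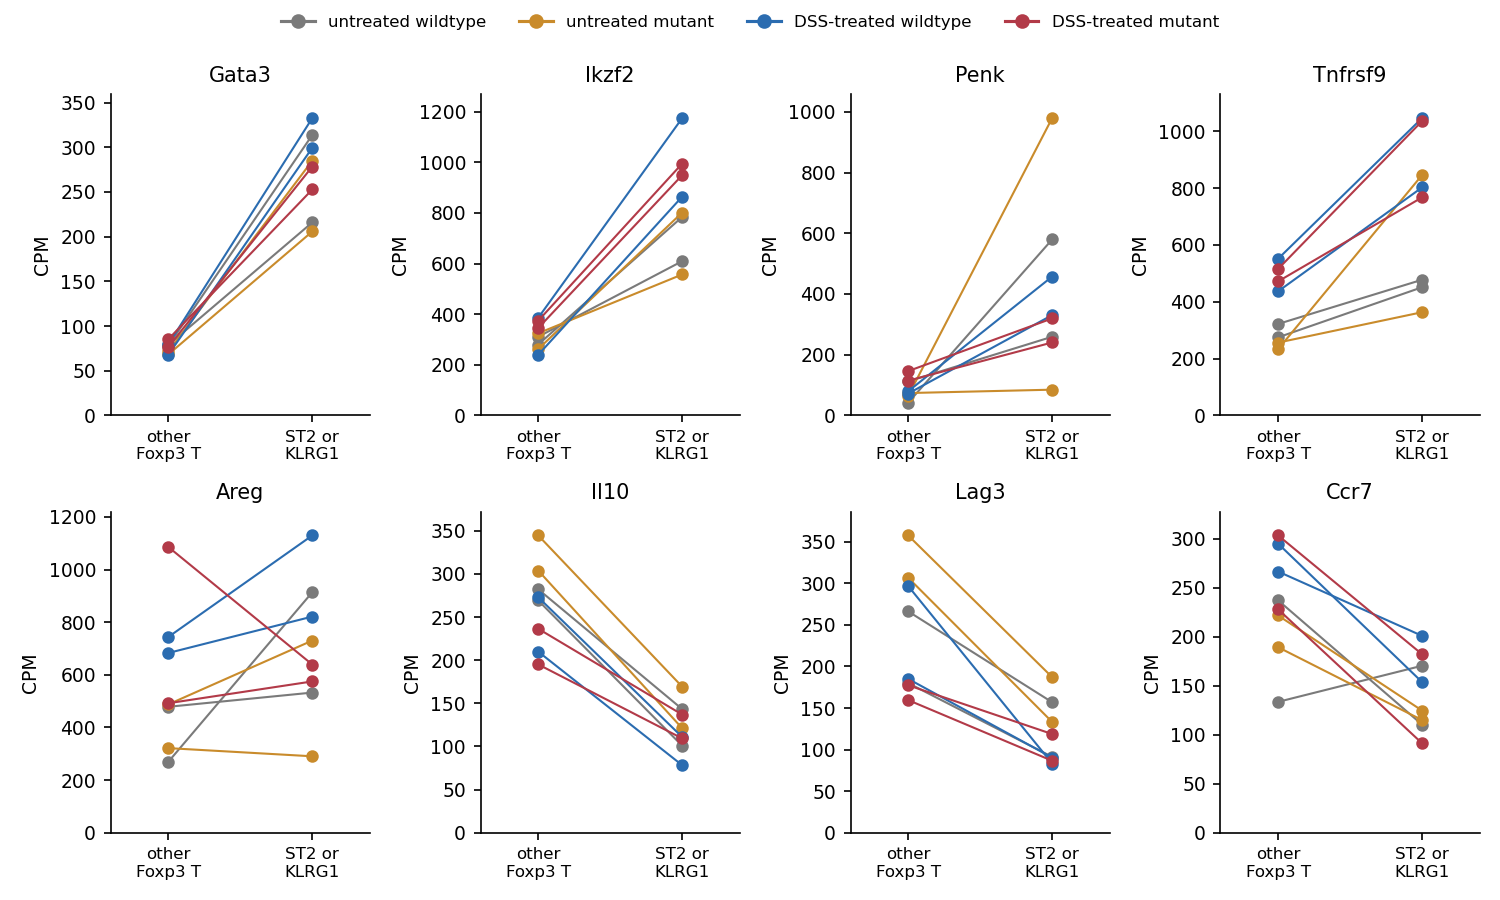
Levels of 8 genes in CPM in other Foxp3 T cells (left of each panel) and ST2 or KLRG1 Tregs (right); each line joins the 2 cell sets of 1 library and colours give the group. Gata3, Ikzf2, Penk and Tnfrsf9 rise and Il10 and Lag3 fall along all 8 lines, while the lines for Areg run both ways.

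ST2 signals through MYD88 to NF-kappaB. Of 16 tested genes of this list 6 were higher and none lower, with a median of 0.35. The highest change was in Rel (0.76, SE 0.09), the c-Rel subunit, at 446 to 1140.1 CPM against 336 to 497 CPM. Nfkbid (0.57), Nfkb2, Nfkb1, and the feedback inhibitors Nfkbia (0.38) and Tnfaip3 were the others. These 6 are NF-kappaB subunits or their regulators, and no Myd88, IRAK gene or Traf6 of the list was called. Il1rl1, as a gene of the rule, was not tested, and no other receptor chain was called. Whether signalling through ST2 differed was not tested. The Nfkb2 call was lost without untreated wildtype library 2 or either DSS-treated mutant library, and the Tnfaip3 call without DSS wildtype library 2. Genes induced by the antigen receptor had 3 of 9 higher and none lower (median 0.31), among them Nr4a1 (0.78) and Tnfrsf9 (0.91), which encodes 4-1BB. Tnfrsf9 was at 363 to 1047 CPM in these cells and 233 to 551 CPM in other Foxp3 T cells, and was higher in each library.

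Inhibitory receptors went both ways: of 13 costimulatory and checkpoint genes 4 were higher and 3 lower (median 0.10). Pdcd1 was higher, whereas Lag3 was lower, at 83.2 to 187 CPM against 159.5 to 358 CPM (log2 fold change -1.01, SE 0.11, edgeR adjusted p = 6.89e-08). Havcr2 (TIM-3) was lower by -0.65. Of 13 tested Th17 genes, 1 was higher (Stat3, 0.40) and 3 lower, with a median of -0.10: Ccl20 (-1.54), a chemokine for CCR6-bearing cells, Il22 (-0.85) and the interleukin-1 receptor Il1r1 (-0.82). The Il22 call was lost without either untreated wildtype library or DSS wildtype library 2, and the Ccl20 call without DSS wildtype library 1. Among 7 Th1 and cytotoxic genes 3 were higher, Gzma (2.92), Il12rb2 (0.79) and Stat4 (0.37), and none lower. The Il12rb2 call was lost without untreated wildtype library 2, either DSS-treated wildtype library or DSS mutant library 2. Gzma, a granzyme, ranged from 18.3 to 695 CPM between libraries, against 0 to 88.7 CPM in other Foxp3 T cells.

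The largest other rises were in Dgat2 (2.89), which makes triglycerides, Cd200r1 (2.41), an inhibitory receptor, Trf (1.74), the iron carrier transferrin, Ctsh (1.43), a lysosomal protease, and Tmem158 (1.41). Dgat2 stood at 18.2 to 97.0 CPM against 4.28 to 11.9 CPM. Prg4 (-1.92), Gbp2b (-1.51), Rrm2 (-1.25), needed for DNA synthesis, and Laptm4b (-1.08) were among the largest falls. Of 17 homing genes 2 were higher, Gpr55 (1.22) and Itgae, and Ccr2 was lower (-0.33), a call lost without untreated wildtype library 2, untreated mutant library 1 or DSS wildtype library 1. Ccr7, which directs cells to lymph nodes, was lower by -0.72 and was the only called member of 10 naive and central memory genes.

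Cell division genes were lower in 5 of 12 and higher in none (median -0.46), among them Mcm5 (-0.80) and Mki67 (-0.53). The Mcm5 call was lost without DSS mutant library 2 and the Mki67 call without any 1 of the 4 DSS libraries. Without very deep or mixed cells neither was called, at -0.66 and -0.28. Heat shock genes were higher in 4 of 15 (median 0.10), with Hspa1a at 0.81, or 0.04 without such cells, and not called without DSS wildtype library 1. Of 5 tested macrophage and dendritic cell genes, H2-Ab1 (-0.92), H2-Aa and Cd74 (-0.70) were lower, and Cst3 (-1.19) was lower as well. The Cd74 call was lost without either untreated wildtype library or DSS mutant library 1. Without very deep or mixed cells these were at -0.03 for H2-Ab1, 0.42 for Cd74 and -0.16 for Cst3, none called. Gata3 (1.85), Ikzf2 (1.44), Penk (2.00), Rel (0.96), Il10 (-1.40) and Lag3 (-1.27) were called in those cells too.

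Within the ST2 or KLRG1 Tregs, cells with Il1rl1 alone were set against cells with Klrg1 alone (9 to 85 and 8 to 49 cells in a library). edgeR called 30 of 1266 genes (2.37%), 11 higher with Il1rl1 (0.869%) and 19 higher with Klrg1 (1.5%). DESeq2 called 11, 1 higher with Il1rl1 and 10 higher with Klrg1. With no filter 18 were higher with Il1rl1 and 17 with Klrg1, and 15 of the 30 were called again. The count fell to 9 without untreated wildtype library 1, 18 without untreated mutant library 1, 12 without untreated mutant library 2, 9 without DSS wildtype library 1, 16 without DSS mutant library 1 and 13 without DSS mutant library 2.

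The Klrg1 cells carried more Gzmb, S100a6 and Lgals1, and the Il1rl1 cells more Kdm6b. Gzmb, granzyme B, was at 383 ± 92.3 CPM with Il1rl1 alone and 987 ± 504 CPM with Klrg1 alone (SD, n = 8; log2 fold change -1.30, SE 0.20, edgeR adjusted p = 0.000851). S100a6 (-0.98), Lgals1 (-0.85), which encodes galectin-1, and the intermediate filament gene Vim (-0.74) followed the same direction. The Vim call was lost without untreated wildtype library 1. The Il1rl1 cells carried more Kdm6b (0.75), a histone H3 lysine 27 demethylase, at 583 ± 134 against 346 ± 83.3 CPM, and more Ccr7 (1.37), at 207 ± 101 against 75.7 ± 42.7 CPM. The Ccr7 call was lost without untreated wildtype library 1. Gzmb, S100a6, Lgals1 and Kdm6b were called whichever library was left out.

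The genes named first against other Foxp3 T cells were not called between the 2 receptors, which does not show equal levels. Gata3 was at 244 ± 49.3 CPM with Il1rl1 alone, 199 ± 44.2 with Klrg1 alone and 445 ± 72.1 with both, and the log2 fold change between the first 2 was 0.25 (edgeR adjusted p = 0.588). Ikzf2 (-0.15, adjusted p = 0.691), Penk (-0.50, adjusted p = 0.557) and Areg (-0.51, adjusted p = 0.154) were not called by edgeR either. Il10 was at 118 ± 49.2, 139 ± 41.4 and 98.1 ± 83.2 CPM in the 3 sets. None of 11 tissue Treg genes and none of 10 core Treg genes tested were called. The cells with both receptors, 2 to 33 per library, were not tested.

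**Figure D3:**
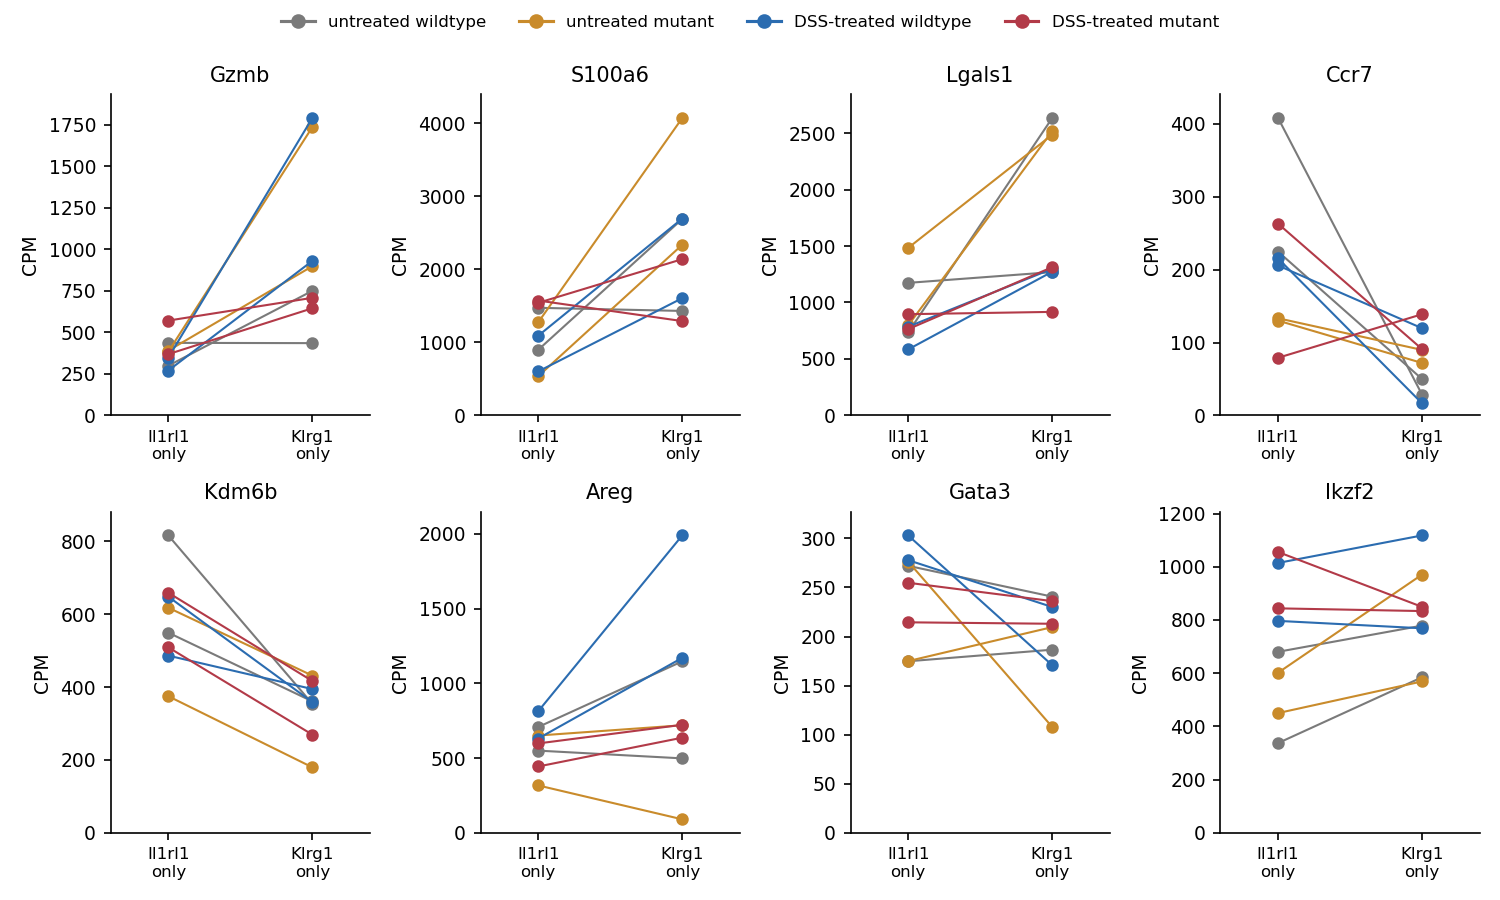
Levels in CPM of 8 genes in cells with Il1rl1 alone (left of each panel) and with Klrg1 alone (right), 1 line per library, coloured by group. Gzmb and Lgals1 are higher on average with Klrg1 alone (987 and 1713 CPM against 383 and 902), Kdm6b is higher with Il1rl1 alone (583 against 346 CPM), and Gata3 lies at 199 against 244 CPM.

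After DSS, ST2 or KLRG1 Tregs carried less Hsp90aa1, Crip1 and Lgals1 and more Tnfrsf1b, Il7r and Serinc3. With the DSS effect averaged over both genotypes, edgeR called 49 of 3821 genes (1.28%), 22 higher (0.576%) and 27 lower (0.707%). DESeq2 called 35, 11 higher and 24 lower, and with no filter on low counts 100 were higher and 45 lower. The count depended on single libraries, at 18 without untreated wildtype library 1, 7 without untreated wildtype library 2, 13 without untreated mutant library 1, 23 without untreated mutant library 2, 86 without DSS wildtype library 1 and 25 without DSS wildtype library 2. The number of cells differed too, from 27 to 36 per untreated library and from 65 to 149 per DSS library. Cells with Klrg1 alone made up 40.6% and 27.8% of the set in the untreated wildtype and 29.6% and 33.3% in the untreated mutant. After DSS they made up 17.5% and 19.2% in the wildtype and 32.3% and 32.9% in the mutant. Lgals1, Lmna and S100a10 were also called higher with Klrg1 alone, and the part of this mix in the gene results was not tested.

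Hsp90aa1, an inducible cytosolic chaperone, was at 2087 and 2712 CPM in the untreated wildtype, 3856 and 5478 in the untreated mutant, 1994 and 1182 in the DSS-treated wildtype, and 1557 and 1461 in the DSS-treated mutant. All DSS libraries were below all untreated ones, and the gene fell by 1.13 on the log2 scale (SE 0.16, edgeR adjusted p = 0.00125). Of 14 tested heat shock and dissociation stress genes 5 fell and none rose (median -0.43, beside 0.01 over all genes): Hsp90aa1, the mitochondrial chaperonins Hspe1 (-1.03) and Hspd1 (-1.25), Hsph1 (-0.86) and Hsp90ab1 (-0.60). Within genotypes none of the 14 was called in the wildtype (median 0.09) and 5 fell in the mutant (median -0.79). The 15 genes of the list summed to 11705 and 15151 CPM in the untreated wildtype, 21030 and 24547 in the untreated mutant and 10678 to 14543 after DSS, so the untreated mutant libraries stood apart. In other Foxp3 T cells they summed to 19991 and 21488 CPM in the untreated mutant and 10432 to 14545 CPM in the other libraries. Hsp90aa1 held its call without each single library; Hspe1 was not called without untreated wildtype library 2, and Hspd1 not without that library or either untreated mutant library. By genotype, the log2 change of Hsp90aa1 was -0.61 in the wildtype (edgeR adjusted p = 0.348) and -1.65 in the mutant (adjusted p = 0.00288), and the interaction of -1.04 was not called (adjusted p = 0.535). Hsph1 and Hsp90ab1 lost their calls without any 1 of the 4 untreated libraries, among others.

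Crip1, a LIM-domain protein of the cytoskeleton, was at 2135 and 2606, 1677 and 1389, 792 and 884, and 1255 and 1236 CPM in group order. It fell by 0.93 on the log2 scale (SE 0.13, edgeR adjusted p = 0.00125), and no DSS library reached an untreated one. Lgals1, galectin-1, was at 1814 and 1536, 1622 and 1300.4, 788 and 859.5, and 936 and 939 CPM, and fell by 0.86 on the log2 scale (SE 0.14, edgeR adjusted p = 0.00429). Both were called without each single library. Lmna (-0.87), Emp3 (-0.75), S100a10 (-0.61) and Prr7 (-1.23) fell as well, each with its call lost without untreated wildtype library 2 and other libraries. Crip1, Lmna, Emp3, S100a10 and Prr7 were members of a list of 14 tested genes taken from earlier results on these libraries, which is not independent evidence of their direction.

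Among the genes that rose, Tnfrsf1b, the tumour necrosis factor receptor 2 that supports Treg survival, was at 171 and 149, 109 and 116, 244 and 385, and 324 and 307 CPM. The DSS libraries were all above the untreated ones (log2 fold change 1.19, SE 0.20, edgeR adjusted p = 0.00482). The call was lost without untreated wildtype library 2 or untreated mutant library 1. Il7r, the interleukin-7 receptor chain, was at 232 and 240.0, 206 and 125, 378 and 579, and 369.7 and 443 CPM (1.11, SE 0.20, adjusted p = 0.00753 by edgeR), with the call lost without either untreated wildtype library or untreated mutant library 2. Serinc3, a membrane protein, rose by 1.24 from 196–218 to 363–738 CPM, and was not called without untreated wildtype library 2. Of 10 costimulatory and checkpoint genes 2 rose, Tnfrsf1b and Cd27 (0.72), and none fell. Of 15 homing genes Gpr55 (1.33) and Ccr2 (0.84) rose; the calls of Cd27, Gpr55 and Ccr2 were lost without untreated wildtype library 1 and other libraries. Thbs1, thrombospondin 1, had 0 UMIs in the untreated cells and 162 after DSS, so it passed the count filter only through the DSS libraries. With the pooled untreated sum set to 3 counts the ratio of pooled levels was 16.1, which takes no account of the spread between libraries. Its call was lost without any 1 of the untreated libraries or DSS mutant library 2. Lists of other cell types had positive medians too, at 1.38 over 4 tested genes of B and plasma cells. The median was 1.83 for the CD8 T, NK and gamma-delta T list, over only 2 tested genes, Fcer1g and Tyrobp, which myeloid cells express too. It was 0.85 over 4 tested genes of macrophages and dendritic cells. No gene of these lists was called, and their part was not tested.

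**Figure D4:**
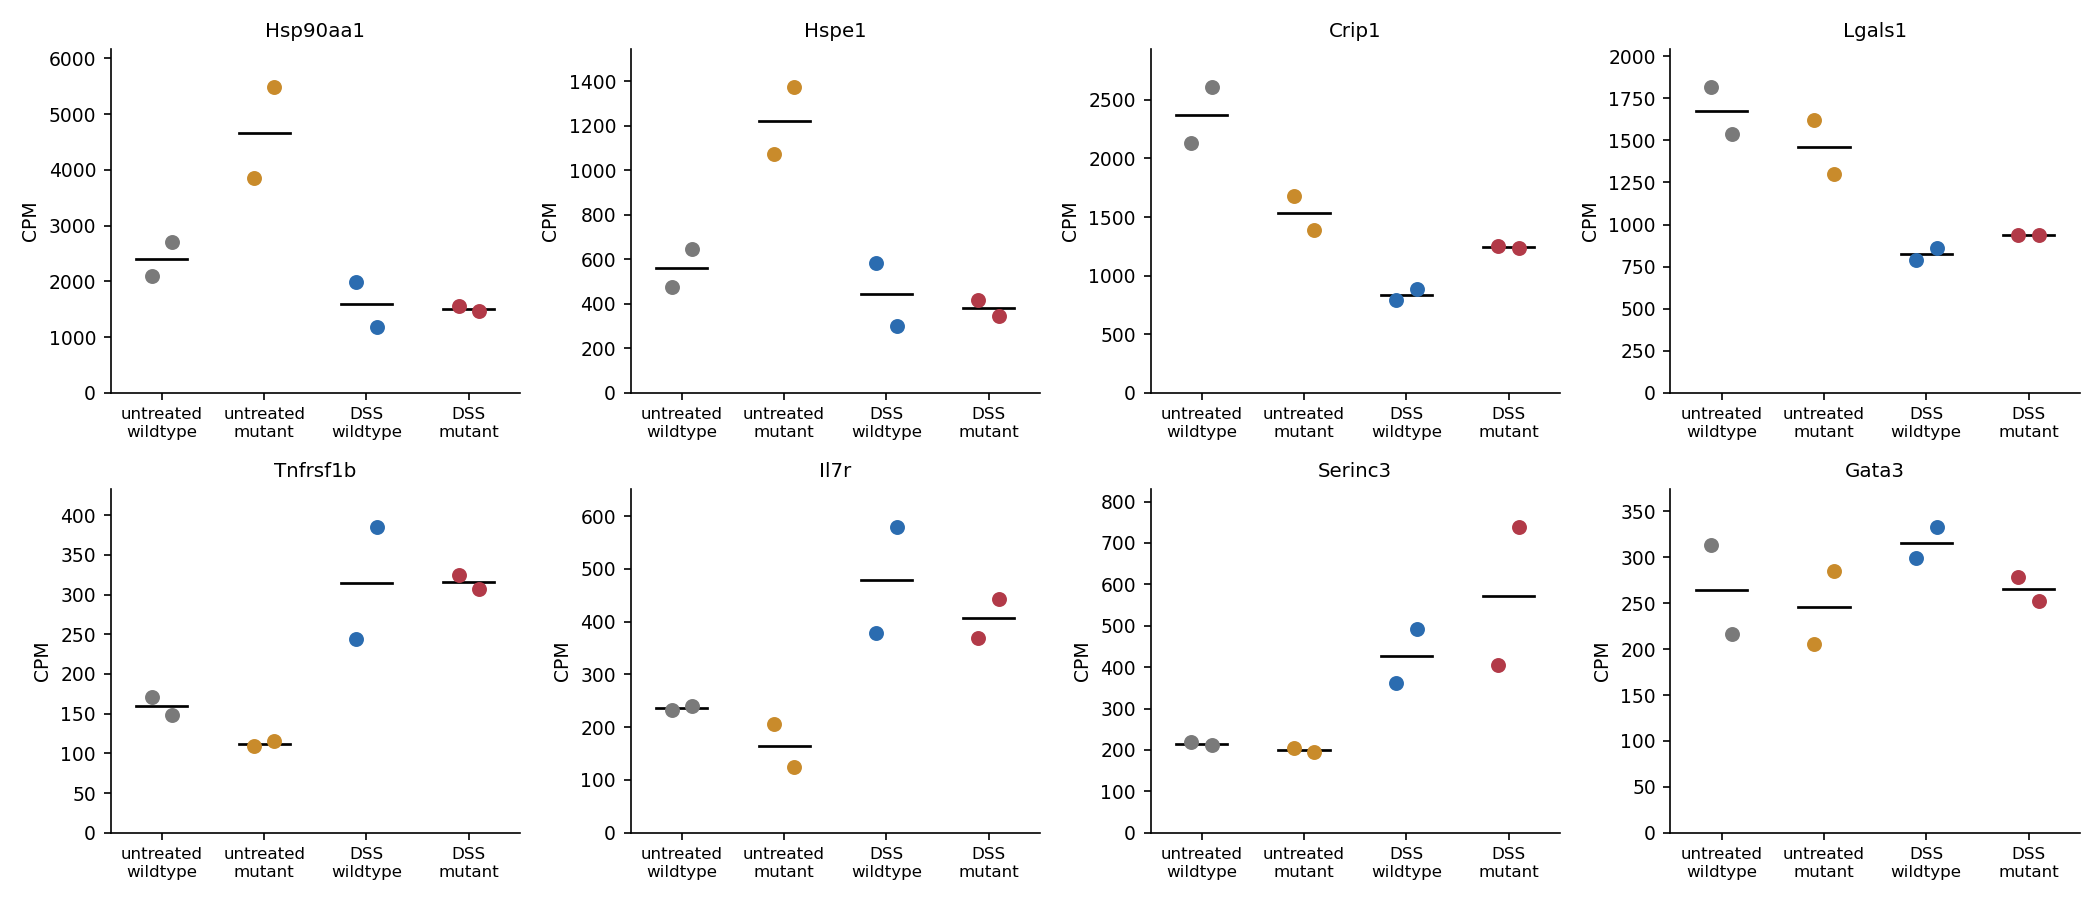
Levels in CPM of 8 genes in ST2 or KLRG1 Tregs by group; each point is 1 library and each bar the mean of the 2 libraries. Hsp90aa1, Crip1 and Lgals1 are lower and Tnfrsf1b, Il7r and Serinc3 higher in the DSS groups, while Gata3 lies at 206 to 333 CPM in all groups.

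Genes of the tissue Treg, core Treg and ST2 signalling lists were not called by edgeR after DSS, and the genes of the rule were not tested. Gata3 was at 255 ± 52.6 CPM untreated and 291 ± 33.8 after DSS (SD, n = 4; log2 fold change 0.18, edgeR adjusted p = 0.626). Areg went from 617 ± 268 to 791 ± 249 CPM (0.34, adjusted p = 0.447 by edgeR) and Ikzf2 from 688 ± 123 to 996 ± 131 CPM (0.52, adjusted p = 0.0961), with no overlap between 557 to 802 CPM untreated and 865 to 1175 CPM after DSS. Il10 (-0.35, adjusted p = 0.43), Penk (-0.49, adjusted p = 0.546), Tnfrsf9 (0.77, adjusted p = 0.0575) and Itgae (1.04, adjusted p = 0.0568) were not called by edgeR, though DESeq2 called Tnfrsf9. None of 16 tissue Treg genes (median 0.05), 14 core Treg genes (median 0.27) or 9 ST2 signalling genes (median 0.12) were called. A miss here does not show equal levels.

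With RNA quality in view, Gm42418, Lars2 and AY036118 moved with DSS, while the share of mitochondrial UMIs overlapped between treatments. Gm42418, a gene model that overlaps ribosomal RNA repeats, made up 2.16% to 4.18% of the UMIs of ST2 or KLRG1 Tregs in untreated libraries and 4.59% to 7.52% after DSS. It rose by 1.05 on the log2 scale, Lars2 rose by 1.35 and AY036118 fell by 1.09, each called without each single library. The share of Gm42418 in other Foxp3 T cells moved alike, from 2.20–3.60% to 4.80–6.90%. Mitochondrial UMIs were at 2.66% to 3.48% in untreated libraries and 2.98% to 3.61% after DSS. Whether RNA quality itself differed was not tested. The part of these differences in the gene results was not tested.

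By genotype, DSS called 13 genes in the wildtype (0.34%), 10 higher (0.262%) and 3 lower (0.0785%), and 16 in the mutant (0.419%), 7 higher (0.183%) and 9 lower (0.236%). With DESeq2 the wildtype split was 4 higher and 7 lower, and with no filter the mutant split was 30 higher and 24 lower. The wildtype count was 1 without untreated wildtype library 1, 0 without untreated wildtype library 2, 20 without DSS wildtype library 2 and 22 without either DSS-treated mutant library. The mutant count was 8 without untreated wildtype library 1 or 2 or untreated mutant library 1, 5 without untreated mutant library 2, and 28 and 27 without DSS wildtype libraries 1 and 2. In the wildtype Crip1 (-1.52), Lgals1 (-1.04) and Lmna (-1.31) fell and Tmem158 (3.07) rose, together with the antigen presentation genes H2-Ab1 (3.09) and Cd74 (2.06), the cytokine Il1b (3.76) and the receptor adaptors Fcer1g (4.49) and Tyrobp (4.33), which myeloid and NK cells express. Fcer1g and Tyrobp had 1 UMI each over both untreated wildtype libraries, so their fitted changes rest on very few counts. The macrophage and dendritic cell list, which holds H2-Ab1 and Cd74, summed to 278 and 327 CPM untreated and 1133 and 1679 CPM after DSS in the wildtype. The CD8 T, NK and gamma-delta T list, which holds Fcer1g and Tyrobp, summed to 14.4 and 40.9 CPM untreated and 139 and 155 CPM after DSS, and 2 of its 2 tested genes were called higher. The 8 B and plasma cell genes summed to 1235 and 571 CPM untreated and to 999.5 and 6817 CPM after DSS. Of 4 tested, 0 were called (median 1.58). The part of any of these cell types in the calls was not tested. Without very deep or mixed cells the wildtype count was 2: Crip1 and Lars2 kept their calls, while H2-Ab1 (1.46) and Cd74 (1.47) were not called and Il1b, Fcer1g and Tyrobp were not tested. In the mutant Hsp90aa1, Hspe1 (-1.72), Hspd1 (-2.33), Hspb1 (-4.67) and Hspa1a (-2.46) fell, and Serinc3 (1.52), Tnfrsf1b (1.46) and Cd27 (1.31) rose. Calls in 1 genotype and not in the other do not show a difference between them.

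Whether DSS acted differently on ST2 or KLRG1 Tregs than on other Foxp3 T cells of the same libraries was tested as a difference of effects, added after the data were seen. Of 7247 genes, 38 were called (0.524%), 22 with a more positive effect in ST2 or KLRG1 Tregs (0.304%) and 16 with a more negative one (0.221%). With RLE size factors 54 were called, 22 more positive and 32 more negative, and without very deep or mixed cells 2. The count was 18 without untreated wildtype library 2, 20 without untreated mutant library 1, 61 without untreated mutant library 2 and 23 without DSS wildtype library 1 or 2.

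Lgals1 was called in each alternative of this test. It went from 1568 ± 213 to 881 ± 72.0 CPM in ST2 or KLRG1 Tregs and from 1095 ± 94.3 to 1106 ± 84.6 CPM in other Foxp3 T cells (SD, n = 4), a difference of -0.84 on the log2 scale (SE 0.11, edgeR adjusted p = 2.65e-05). Untreated, the ST2 or KLRG1 Tregs were above the others for galectin-1, and after DSS they were below. The part of the mix of Il1rl1 and Klrg1 cells in this difference was not tested. The cell division gene Cks1b was at 72.0 ± 26.1 and 44.4 ± 14.7 CPM in ST2 or KLRG1 Tregs and rose from 39.0 ± 5.68 to 89.7 ± 9.89 CPM in the others (-1.82, edgeR adjusted p = 0.00124), but lay at -0.16 without very deep or mixed cells. Il17a differed by 1.54, at 174 ± 48.8 and 331 ± 208 CPM against 323 ± 170.0 and 215 ± 191 CPM, and Isg15, an interferon-induced gene, by 1.10; neither was called without very deep or mixed cells. The fibroblast gene Dcn (4.71) was also called, though not without untreated wildtype library 2.

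Averaged over treatments, no difference between mutant and wildtype was called in these cells. No gene of 3821 was called by edgeR (0%) and none by DESeq2, while 162 had an unadjusted p under 0.05; 2 were called without DSS mutant library 1. Gata3 (-0.19), Ikzf2 (-0.06), Il10 (0.31) and Penk (-0.13) had adjusted p of 0.982 or more by edgeR, and Areg was at -0.62 (edgeR adjusted p = 0.982). Of 8 tested Th17 genes none were called (median -0.18).

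Between genotypes within a treatment, 2 genes were called in untreated mice and 1 after DSS. In untreated mice 2 genes were called (0.0523%), H2-Ab1 (3.27, SE 0.49, edgeR adjusted p = 0.00905) and Cd74 (2.22, SE 0.37, adjusted p = 0.0158), which encode an MHC class II chain and its chaperone. Cd74 was at 150.1 and 168 CPM in the untreated wildtype, 563 and 962 in the untreated mutant, 826 and 506 in the DSS-treated wildtype, and 237 and 502 in the DSS-treated mutant. H2-Ab1 was at 27.3 and 28.8, 297 and 249, 259 and 225, and 82.2 and 219 CPM. The untreated wildtype libraries were the low ones for both genes, and without either of them no gene was called in untreated mice; 9 were called without either DSS-treated wildtype library, 5 without DSS mutant library 1 and 6 without library 2 of that group. Cd74 was not called without untreated mutant library 2 either, nor H2-Ab1 without untreated mutant library 1. Neither gene was called without very deep or mixed cells (1.38 for Cd74, 0.90 for H2-Ab1). Other lists also differed between these libraries. The heat shock and dissociation stress genes summed to 11705 and 15151 CPM in the untreated wildtype and 21030 and 24547 CPM in the untreated mutant, with 0 of 14 tested genes called (median 0.76). The CD8 T, NK and gamma-delta T list summed to 40.9 and 14.4 CPM and to 96.9 and 89.1 CPM, with 0 of 2 tested genes called. Their part in the calls was not tested.

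After DSS, 1 gene was called between genotypes (0.0262%), the macrophage lysozyme Lyz2 (-3.33, SE 0.50, edgeR adjusted p = 0.00889). It was at 247 and 111 CPM in the DSS-treated wildtype and 32.0 and 14.8 CPM in the DSS-treated mutant, and was not called by DESeq2, without DSS wildtype library 1 or without DSS mutant library 2. Leaving out mixed cells removes each cell with a Lyz2 UMI, so that alternative gives no value for Lyz2. The count was 8 without DSS wildtype library 2, 6 without DSS mutant library 1, 2 without untreated wildtype library 2, and 3 without DSS wildtype library 1 or either untreated mutant library. The interaction of DSS and genotype called 5 genes (0.131%): Cd74, H2-Ab1, Il1b, Lyz2 and Ifitm3, all with a more negative DSS effect in the mutant. None of the 5 was called without untreated wildtype library 1 or 2, and no gene was called without very deep or mixed cells; the count was 3 without DSS wildtype library 1 or either untreated mutant library and 11 without DSS wildtype library 2 or DSS mutant library 2.

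The macrophage and dendritic cell list, all 10 genes of which had a UMI, summed to 327 and 278 CPM in the untreated wildtype, 1084 and 1764 in the untreated mutant, 1679 and 1133 in the DSS-treated wildtype, and 493 and 1016 in the DSS-treated mutant. The list holds H2-Ab1 and Cd74 themselves, so its sums are not independent of them. In other Foxp3 T cells the list summed to 1964 and 1833, 1595 and 2633, 1919 and 1617, and 1607 and 704 CPM in the same order of groups. The untreated wildtype was thus not the low group there. The part of macrophage or dendritic cell RNA in these calls was not tested beyond the alternative without very deep or mixed cells.

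**Figure D5:**
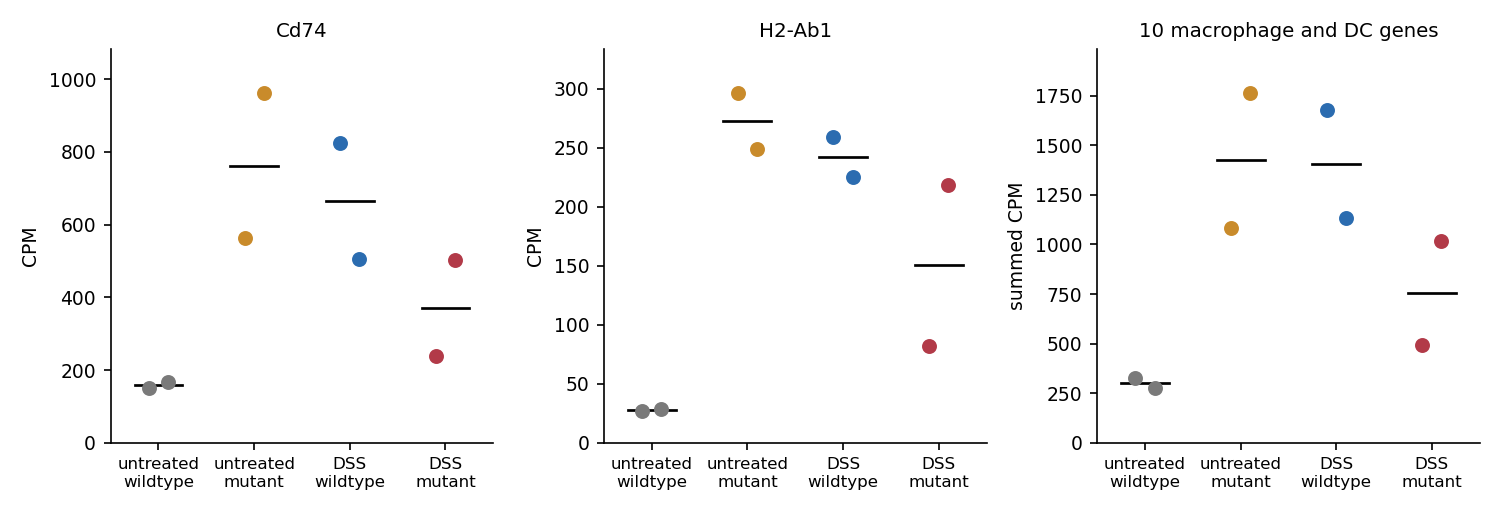
Levels in CPM of Cd74 and H2-Ab1, and the summed level of the 10 macrophage and dendritic cell (DC) genes, in ST2 or KLRG1 Tregs by group; each point is 1 library and each bar the mean of 2 libraries. Cd74 and H2-Ab1 are lowest in the untreated wildtype (150.1 and 168 CPM, and 27.3 and 28.8 CPM), as is the summed list, which includes both genes (327 and 278 CPM).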

How the data were processed

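Raw UMI counts of 10x 3′ libraries, gene by barcode, are what the authors deposited for each sample, with a list of the cells they kept. Per the submitters' processing notes, Cell Ranger 3.1.0, Seurat 4.0.1 and genome build mm10 were used; how cells were chosen is not given in the sources used here. Rows of the count tables took their symbols from a deposited list of 31053 genes, 36 of them repeated symbols; 30468 of 30934 identifiers (98.5%) carried the same symbol in a reference table, and summed counts of rows correlated at 0.975 or more between tables against 0.318 or less with rows shifted.

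UMIs were summed per library and cell set and tested with edgeR 4.0.16 (TMM, filterByExpr, glmQLFTest; R 4.3.3, limma 3.58.1) on all 8 libraries, with DESeq2 1.42.0 as an alternative and Benjamini-Hochberg adjustment over all genes tested (0.05). Comparisons of cell sets had the library as a block. Shares used exact permutation over libraries (Python 3.11.15, scipy 1.17.1). P-values measure the spread between libraries. The fit was also run on simulated counts, whose rates are not given here, so no error rate for these data follows from it. Alternatives were another scaling, no filter, Foxp3 at 2 UMIs or more, cells thinned to 1000 UMIs, leaving out very deep cells (over 3 times the library's median T cell UMIs) or mixed cells (a UMI of another lineage's genes), and leaving out each library.

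Named genes were those of the rule, called or highly expressed members of the gene lists, and per comparison the 10 called genes with the largest change in each direction at a mean of 20 CPM or more; with fewer than 5 calls, the 5 smallest p. Where more than 4 called members of a list are named, the further ones, and Batf, Tgfb1 and Gzmb beside them, were named after their values were seen. The members and lists were chosen with earlier results of these data known. A second list, holding the same barcodes as the list of cells, was left out. The identity of the substitution, and a comparison with a further set of Foxp3 T cells planned with the others, are not reported here.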

Additional observations from a re-analysis of the deposited data

Results flagged for a closer look

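The effect of DSS differed between genotypes, by the interaction in edgeR's test on all 8 libraries, for 5 genes of ST2 or KLRG1 Tregs: H2-Ab1 (-3.81), Cd74 (-3.03), Il1b (-4.72), Lyz2 (-4.97) and Ifitm3 (-3.74), on the log2 scale and more negative in the mutant. DESeq2 called 2 genes, 1 of them among these 5, and edgeR called none without untreated wildtype library 1, without untreated wildtype library 2 or without very deep or mixed cells, where H2-Ab1 (-0.94) and Cd74 (-1.77) were the genes of the 5 still tested.

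The effect of DSS differed between ST2 or KLRG1 Tregs and other Foxp3 T cells of the same libraries for the following genes, by edgeR's test of the difference. More negative in ST2 or KLRG1 Tregs were Aimp2 (-2.37), 1500009L16Rik (-2.31), Cdca3 (-2.08), Hist1h3c (-1.92), Cks1b (-1.82), Ube2c (-1.82), Nusap1 (-1.78), Hist1h2ap (-1.51), Hist1h2ae (-1.50) and Selenoh (-1.35). More positive were Ly6d (9.46), Dcn (4.71), Igfbp7 (4.34), Tmem158 (2.27), Il17a (1.54), Egr1 (1.52), Cst3 (1.19), Isg15 (1.10), Klf4 (1.10) and Dusp5 (0.85). A gene could pass the count filter through a single combination of cell set and treatment. The largest changes, such as that of Ly6d, can therefore rest on very few counts in the other combinations. Without very deep or mixed cells 2 genes were called in this comparison, the direction turned for Ube2c (1.10), Hist1h2ap (1.02), Selenoh (0.20) and Cst3 (-0.25), and Cks1b was at -0.16.

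Barcodes outside the deposited list of cells also held cells that meet the count part of the rule. They made up 3.35% ± 0.801 of unlisted T barcodes in DSS libraries and 1.12% ± 0.244 in untreated ones (SD, n = 4 libraries each).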

How the results depend on the processing

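No analysis paired across groups was run because the labels give no replicate numbers, and the numbers 1 and 2 only name the libraries in the order of deposit. The titles carry numbers of their own, but nothing in the labels says that these pair mice across groups. Comparisons of cell sets were blocked by library. Counts of called genes against other Foxp3 T cells were 229 with DESeq2, 113 with Foxp3 at 2 UMIs or more, 27 thinned to 1000 UMIs, 166 without very deep or mixed cells, and 207 to 431 without single libraries. For Il1rl1-only against Klrg1-only cells they were 11 with DESeq2, 14 with Foxp3 at 2 UMIs or more, 10 without very deep or mixed cells and 9 to 36 without single libraries. Averaged over genotypes, DSS called 145 genes with no filter, 4 thinned, 26 without very deep or mixed cells and 7 to 86 without single libraries. In the wildtype it called 68, 2, 2 and 0 to 22 under the same settings, and in the mutant 54 with no filter, 7 thinned and 5 to 28 without single libraries.

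The genotype averaged over treatments called 5 genes with no filter and 0 to 2 without single libraries. In untreated mice it called 1 gene with DESeq2, 14 with no filter, 11 with only the libraries compared, 0 with Foxp3 at 2 UMIs or more, 4 thinned, 0 without very deep or mixed cells and 0 to 9 without single libraries. After DSS it called 0 with DESeq2, 37 with no filter, 0 thinned, 0 without very deep or mixed cells and 1 to 8 without single libraries. The interaction called 2 with DESeq2, 17 with no filter, 2 with Foxp3 at 2 UMIs or more, 2 thinned, 0 without very deep or mixed cells and 0 to 11 without single libraries. The difference of DSS effects between cell sets called 89 with no filter, 71 with Foxp3 at 2 UMIs or more, 2 without very deep or mixed cells and 18 to 61 without single libraries.

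The DSS difference in the share of Foxp3 T cells turned positive with Foxp3 at 2 UMIs or more (0.777 points), thinned (2.44) and without very deep or mixed cells (2.13), and ran from -1.73 to 0.779 without single libraries. The DSS difference in the share of T cells was 1.69 to 2.44 points without single libraries, 1.44 with Foxp3 at 2 UMIs or more, 0.757 thinned and 2.23 in unlisted barcodes; the genotype differences ran from -0.965 to 0.339 points of T cells and from -1.81 to 0.703 points of Foxp3 T cells. Over 129 results on single genes, 1145 alternatives kept direction and call, 429 lost the call, 25 gained it and 5 turned direction. These results cover the genes picked per comparison by size of change or smallest p, not every gene named from the lists. The 5 turns were all without very deep or mixed cells. The difference of DSS effects was 1.10 for Ube2c, 1.02 for Hist1h2ap, 0.20 for Selenoh and -0.25 for Cst3, and Psap was at 0.000771 for the mutant after DSS. Outside this count, Cd74 against other Foxp3 T cells turned direction in that setting too. Where the setting removes cells or libraries, fewer cells enter each sum; other causes were not tested. Thinned fits could not be fitted between Il1rl1-only and Klrg1-only cells, because a library had no cell left in a set. Depth limits the untreated libraries most, with 27 to 36 cells each.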

Other observations

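Outside the deposited list, 790 T barcodes met the count part of the rule, 107 of them with a Cd4 UMI. Their share of unlisted T barcodes was higher after DSS by 2.23 percentage points (exact permutation p = 0.0286, two-sided, the smallest that 4 libraries against 4 allow). Of the 381 genes called in the listed cells, 363 were tested in the unlisted barcodes, 355 had the same sign and 245 were called with the same sign. Gata3 was at 340.5 ± 81.7 CPM in the unlisted barcodes that met the rule and 87.7 ± 12.4 CPM in the other unlisted Foxp3 T barcodes, Ikzf2 at 1113 ± 225 and 375 ± 66.4 CPM, and Il10 at 136 ± 56.4 and 306 ± 73.5 CPM (SD, n = 8). Areg was at 767 ± 284 and 582 ± 162 CPM and was called higher (log2 fold change 0.39, edgeR adjusted p = 0.0114).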
